A study of Mus musculus with 18 samples.

Results

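The urea cycle and the first steps of amino acid breakdown were followed in mouse liver through 9 genes: Nags, Cps1, Otc, Ass1, Asl, Arg1, Prodh, Tdo2 and Hal. They were read from every array probe whose gene name in the scanner files is 1 of these symbols, which gave 9 of the 27845 gene names on the array and 14 of its 41174 probes. All 14 were among the 25439 probes kept for testing. Total liver RNA came from 18 male CD-1 mice, aged 9 weeks at sampling, after 28 days on a powdered diet. The 3 groups of 6 mice received no bisphenol A (control), 50 µg per kg per day (low dose) or 5000 µg per kg per day (high dose). These are average doses calculated from an assumed food intake. Bisphenol A is a monomer of plastics and resins that binds estrogen receptors weakly. Each mouse was hybridised, with Cy3 label, to 1 array.

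The urea cycle turns ammonia released from amino acids into urea, which the kidney excretes, and hepatocytes are the cells that run the whole cycle. Its first enzymes sit in mitochondria and its later ones in the cytosol. Proline, tryptophan and histidine each have their own breakdown route, and the liver carries out much of the last 2 of these.

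Levels are given as log2 spot intensity after background subtraction, minus the 75th percentile of the array, so a level is relative to the other spots of that array. That percentile averaged 230.1 ± 43.1 intensity units in control, 295.4 ± 44.0 in low-dose and 291.8 ± 34.1 in high-dose mice (SD, n = 6 each), so unscaled arrays were brighter in both dosed groups. The 7 measured hepatocyte markers of a list of 8 had a summed level, as a linear multiple of the 75th percentile, of 985 to 1487 in control, 894 to 1196 in low-dose and 893 to 1114 in high-dose mice. None of these 7 markers was at 0, and 4 of them were saturated on at least 1 array. The median log2 fold change of the 7 against control was -0.37 for the low dose and -0.32 for the high dose. At the low dose 2 of the 7 were higher and 5 lower, and at the high dose 0 higher and 7 lower. For 5 measured periportal hepatocyte markers the median was 0.10 at the low and 0.07 at the high dose, with 3 higher and 2 lower at each. Their summed level went the other way, with medians of 382.7 in control, 332.6 in low-dose and 350.3 in high-dose mice. For 9 pericentral hepatocyte markers the median log2 fold change was -0.10 and 0.21. Their summed level had medians of 237.5 in control, 219.3 in low-dose and 274.2 in high-dose mice. In whole liver, fewer cells of a type and less RNA per cell cannot be told apart, and the part of hepatocyte RNA in the values below was not tested.

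All 14 probes were well above background on all 18 arrays, and none was called saturated on any. The nearest to saturation was an Ass1 spot in low-dose mouse 2, where 9 of 68 pixels were saturated. A single spot, Otc probe A_52_P286360 in high-dose mouse 6, was marked as an outlier by the scanner software and left out. That probe has 5 mice in the high-dose group, and its fits use 17 arrays.

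None of the 14 probes changed past an adjusted p of 0.05 in limma in any of the 3 comparisons. Over all probes tested, 0.224% passed at the low dose against control, 0% at the high dose against control and 0.0432% at the high against the low dose. The smallest adjusted p among the members was 0.321 at the low dose against control, 0.575 at the high dose against control and 0.653 between the doses. At an unadjusted p under 0.05, 2 of 14 probes passed at the low dose (Arg1 and Prodh), against 12.3% of all probes. The same 2 probes passed at the high dose, against 7.28% of all probes. Between the doses 1 of 14 passed (Prodh), against 7.66% of all probes. Counts of 1 or 2 among 14 probes that share genes are near these background shares.

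The fitted differences were mostly small. Of the 14 probes, 3 were higher and 11 lower at the low dose than in control, with a median log2 fold change of -0.12, where the median over all probes was -0.02. At the high dose 4 were higher and 10 lower than in control, with a median of -0.10 against -0.01 over all probes. The high dose was higher than the low dose for 10 and lower for 4, with a median of 0.03 against 0.01 over all probes. Both dose comparisons share the control mice. These direction counts depend on the processing. Without scaling between arrays, 14 probes were higher and 0 lower at the low dose than in control, and 13 higher and 1 lower at the high dose. Set against the median of all probes, which then lay 0.34 above control at both doses, 5 were above and 9 below it at the low dose and 4 above and 10 below at the high dose. With normexp background, 12 were higher and 2 lower at the low dose than in control, and 10 higher and 4 lower at the high dose. Between the doses 3 were higher and 11 lower at the high dose. The normexp medians of all probes were -0.16, -0.06 and 0.12 in these 3 comparisons. Set against them, 13 were above and 1 below at the low dose, and 10 above and 4 below at the high dose. Between the doses 1 was above and 13 below. With slide as a fixed block, 6 were higher and 8 lower than control at the low dose, and 7 higher and 7 lower at the high dose. Under the 75th-percentile scaling, taking the 95% intervals of all 14 probes at each dose against control together, the widest bounds were 0.564-fold and 1.74-fold, so larger changes than these lie outside every interval.

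**Figure D1:**
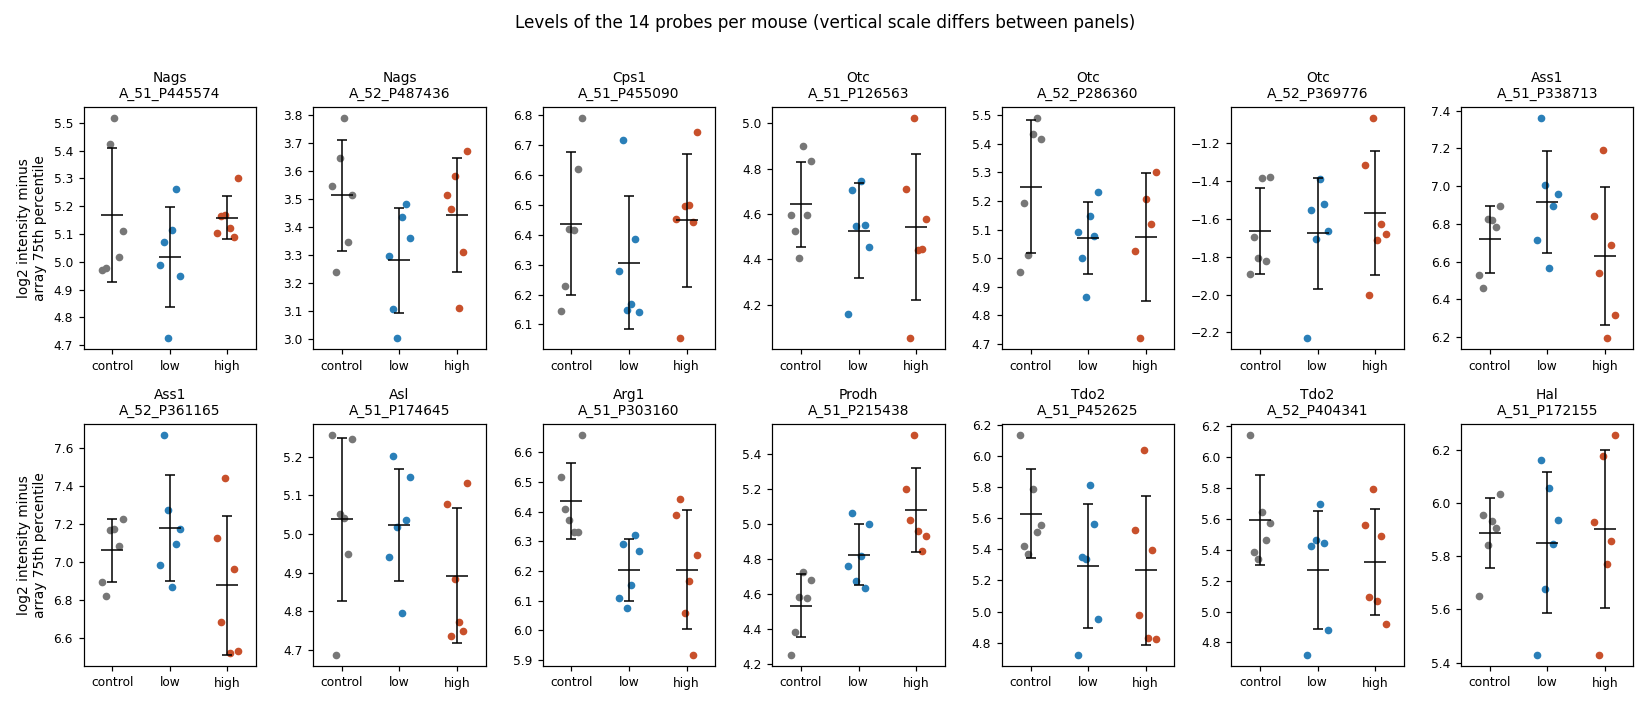
Level of each of the 14 probes in each mouse (points), with the group mean and SD (bars), for control, low-dose and high-dose mice; the vertical axis is log2 intensity minus the array's 75th percentile and differs between panels. Prodh is the panel where all 6 high-dose mice lie above all 6 control mice, with means of 5.08 and 4.53.

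Prodh, the mitochondrial enzyme that starts proline degradation, had the largest difference of the 9 genes, at the high dose against control. Its level (lowest, median and highest mouse) was 4.25, 4.58 and 4.72 in control, 4.63, 4.79 and 5.07 in low-dose, and 4.85, 4.99 and 5.51 in high-dose mice. Every high-dose mouse was above every control mouse, while the low-dose mice overlapped both groups. Group means were 4.53 ± 0.18 in control, 4.83 ± 0.17 in low-dose and 5.08 ± 0.24 in high-dose mice (SD, n = 6 each).

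The high dose exceeded control by 0.55 ± 0.12 (log2, SE), which is 1.46-fold with a 95% interval of 1.22 to 1.74 (limma adjusted p = 0.575). By unadjusted p it ranked 9 among the 25438 probes tested in that comparison, and no probe at all passed after adjustment. Groups that do not overlap, with the high dose above control, occurred for 0.13% of all probes and, with the high dose below, for 0.342%; among the members this was 1 of 14 above and 0 of 14 below. The low dose exceeded control by 0.29 ± 0.12 (1.22-fold, limma adjusted p = 0.322). The high dose exceeded the low dose by 0.25 ± 0.12 (1.19-fold, limma adjusted p = 0.653), a value that was 0.01 with normexp background and 0.17 without high-dose mouse 3.

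Against control, the direction for Prodh was the same on each slide that held both groups. High-dose minus control differences within slides ran between 0.31 and 0.86 on 4 slides, and low-dose minus control differences between 0.16 and 0.60 on the same number. Control mice lay at the outer positions of their slides and nearly all low-dose mice at the inner ones. With inner or outer position as a block, an alternative chosen after seeing the data, the Prodh difference from control was 0.12 for the low dose (limma adjusted p = 0.943) and 0.41 for the high dose (limma adjusted p = 0.988).

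The Prodh probe, A_51_P215438 for NM_011172, lies on chromosome 16 from 17985361 to 17985420 on the minus strand of mouse build mm8, as the scanner files give it. Exon annotation of that build was not used here. The 300 bases around the annotated Prodh start, 250 before and 50 after, are shown because Prodh had the largest high-dose difference from control among the members. They come from RefSeq on GRCm38.p6 (chr16:18089141-18089440, minus strand).
Prodh: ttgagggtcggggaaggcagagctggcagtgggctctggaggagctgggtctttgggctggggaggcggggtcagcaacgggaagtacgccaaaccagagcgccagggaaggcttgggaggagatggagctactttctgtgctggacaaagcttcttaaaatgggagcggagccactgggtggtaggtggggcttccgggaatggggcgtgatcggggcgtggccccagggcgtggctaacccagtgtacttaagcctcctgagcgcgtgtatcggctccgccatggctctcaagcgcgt
The window was searched on both strands for TATAAA, the letters of a TATA box, for CCAAT, those of the box named after them, for TTGCNNAA, bound by C/EBP factors, for TGTTCT, a hexamer of glucocorticoid receptor sites, and for AGGTCA, a hexamer of estrogen receptor and related sites. None of these letters occurs in it, hence the lower case throughout. Among 32851 promoter windows of the same length, 13.6% hold TATAAA, 37.4% CCAAT, 10.8% TTGCNNAA, 19.0% TGTTCT and 16.3% AGGTCA.

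**Figure D2:**
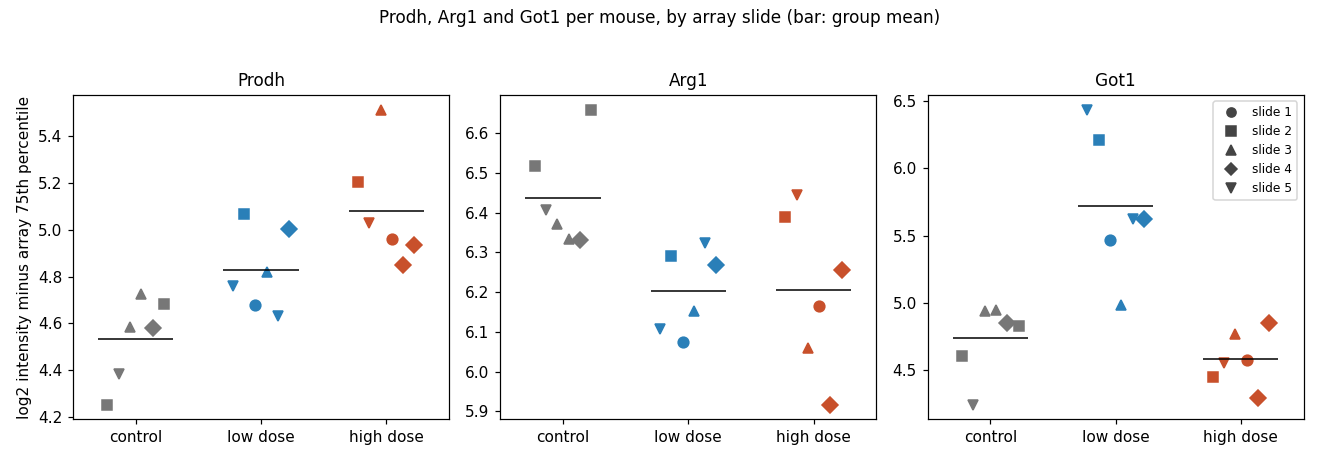
Level of Prodh, Arg1 and Got1 in each mouse by group (control, low dose, high dose), with a marker shape for the array slide and a bar for the group mean; the vertical axis is log2 intensity minus the array's 75th percentile. High-dose Prodh values lie between 4.85 and 5.51 and control values between 4.25 and 4.72, while for Got1 the low-dose mice lie above both other groups.

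Arg1, the cytosolic arginase that splits arginine into urea and ornithine and so closes the cycle, was slightly lower in both dosed groups under the 75th-percentile scaling, but not without scaling. Its level (lowest, median and highest mouse) was 6.33, 6.39 and 6.66 in control, 6.07, 6.21 and 6.32 in low-dose, and 5.92, 6.21 and 6.44 in high-dose mice. All low-dose mice were below all control mice, by a gap between 6.32 and 6.33, and the high-dose mice overlapped control. Groups not overlapping in this direction at the low dose occurred for 1.03% of all probes and for 1 of the 14 member probes.

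The Arg1 difference from control was -0.23 ± 0.10 (log2, SE) at the low dose, which is 0.85-fold (limma adjusted p = 0.321), and its sign turned without scaling between arrays (0.13) and with normexp background (0.12). Against the same control mice the high-dose difference was also -0.23 ± 0.10 (limma adjusted p = 0.647), and turned to 0.12 without scaling. Without scaling, the median of all probes itself exceeded control by 0.34 in each of the 2 dosed groups. Within the 4 slides that held both groups, the low-dose minus control difference ran between -0.30 and -0.06. With inner or outer position as a block, chosen after seeing the data, the low-dose difference kept its sign (limma adjusted p = 0.82). The high and low dose differed by 0.00 (95% interval -0.20 to 0.21). The probe, A_51_P303160 for NM_007482, lies on chromosome 10 from 24605804 to 24605863 (mm8, minus strand).

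The mitochondrial steps of the cycle are Nags, Cps1 and Otc. Nags makes N-acetylglutamate, the obligate activator of Cps1. Its 2 probes had log2 differences from control of -0.15 ± 0.11 and -0.23 ± 0.12 for the low dose and -0.01 ± 0.11 and -0.07 ± 0.12 for the high dose (SE, n = 6 each). All 5 slides with both doses had a higher high-dose than low-dose level for both Nags probes, by 0.03 to 0.40 and by 0.08 to 0.41, yet the fitted differences of 0.14 and 0.16 had limma adjusted p-values of 0.839 and 0.822. Probe A_51_P445574 had levels (lowest, median, highest) of 4.97, 5.06 and 5.52 in control, 4.72, 5.03 and 5.26 in low-dose, and 5.09, 5.14 and 5.30 in high-dose mice, with the 3 ranges overlapping.

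Cps1, which combines ammonia and bicarbonate into carbamoyl phosphate, had levels of 6.15, 6.42 and 6.79 in control, 6.14, 6.22 and 6.72 in low-dose, and 6.05, 6.47 and 6.74 in high-dose mice. These ranges nearly coincide. The difference from control was -0.13 ± 0.13 for the low dose and 0.01 ± 0.13 for the high dose (log2, SE; limma adjusted p = 0.759 and 0.99).

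Otc, which joins carbamoyl phosphate to ornithine to give citrulline, was read by 3 probes that did not follow each other fully. The 2 probes for NM_008769 had low-dose differences from control of -0.12 ± 0.14 and -0.18 ± 0.12, and high-dose differences of -0.10 ± 0.14 and -0.18 ± 0.12 (log2, SE). Across 17 mice these 2 probes correlated with r = 0.50 and Spearman rho = 0.37 (permutation, adjusted p = 0.185 and 0.392), and r was 0.32 without the 2 mice farthest from the median. The third probe, for BC024893, had intensities of 48.1 to 129 units over the 18 arrays and differences of -0.01 ± 0.16 at the low and 0.10 ± 0.16 at the high dose. It correlated with the first NM_008769 probe with r = 0.88 (rho = 0.77, permutation adjusted p = 0.00014 and 0.00476, n = 18). For Otc the mm8 positions of the 3 probes are chromosome X, 9433676 to 9457323, 9477100 to 9477159 and 9473077 to 9473136, all on the plus strand. The first of these spans 23648 bases of the genome.

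Ass1 and Asl are the cytosolic steps that bring in aspartate and release arginine and fumarate. Ass1 had its doses on opposite sides of control, at 0.20 ± 0.16 and 0.12 ± 0.16 for the low dose and -0.09 ± 0.16 and -0.18 ± 0.16 for the high dose for its 2 probes (log2, SE). Both signs at the low dose turned with inner or outer position as a block (-0.10 and -0.19). Without scaling both signs at the high dose turned (0.27 and 0.17), and normexp background turned the first of them (0.09). Probe A_52_P361165 had levels of 6.82, 7.12 and 7.22 in control, 6.87, 7.13 and 7.67 in low-dose, and 6.52, 6.82 and 7.44 in high-dose mice, so all 3 groups overlapped. High against low dose gave -0.29 ± 0.16 and -0.30 ± 0.16, or 0.82-fold and 0.813-fold (limma adjusted p = 0.74 and 0.715). The 2 Ass1 probes followed each other with r = 0.98 over 18 mice.

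Asl levels were 4.69, 5.05 and 5.26 in control, 4.80, 5.03 and 5.20 in low-dose, and 4.74, 4.83 and 5.13 in high-dose mice. The difference from control was -0.02 ± 0.11 at the low and -0.15 ± 0.11 at the high dose (log2, SE; limma adjusted p = 0.973 and 0.793). Asl thus overlapped between all groups.

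**Figure D3:**
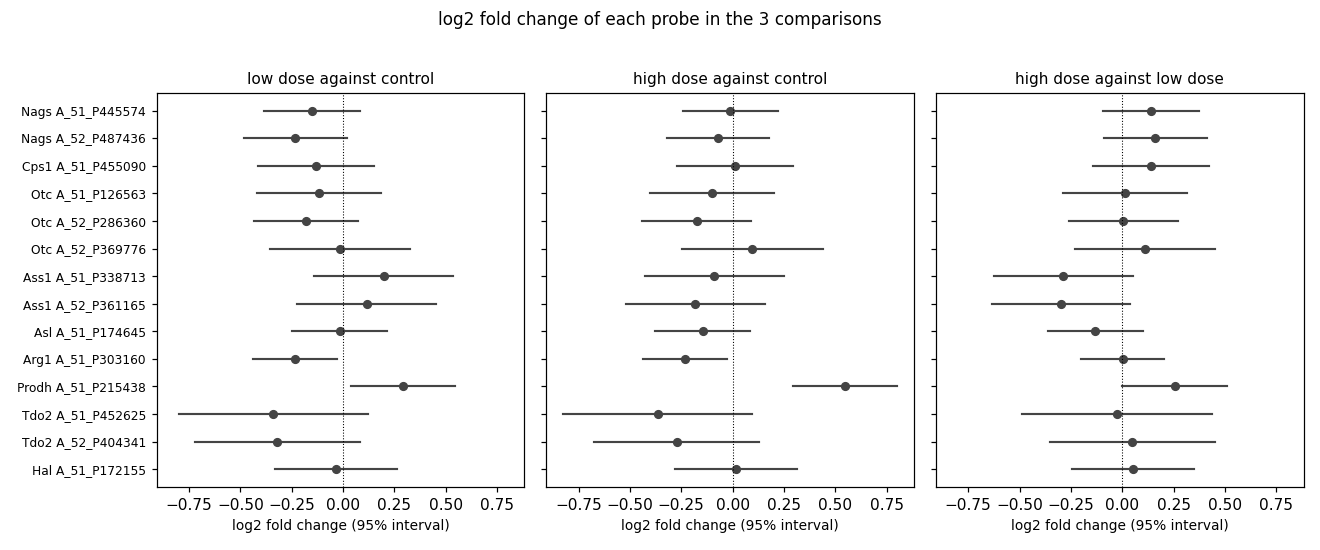
Log2 fold change of each of the 14 probes (points) with its 95% interval from limma (lines) for each dose against control and for the 2 doses against each other. The intervals for Prodh exclude 0 in all 3 panels and those for Arg1 in the 2 panels against control, before any adjustment over probes; the Prodh points are at 0.29, 0.55 and 0.25.

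Tdo2 opens the tryptophan ring, the step that commits tryptophan to the kynurenine route. Its 2 probes had the largest spread between mice of the same group, with an SD within groups of 0.40 and 0.34 where the median over all kept probes was 0.29. Probe A_51_P452625 had levels of 5.37, 5.53 and 6.13 in control, 4.72, 5.35 and 5.81 in low-dose, and 4.82, 5.19 and 6.03 in high-dose mice. Under this scaling the group means were lower in both dosed groups, but the ranges overlapped over most of their length.

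For that probe the difference was -0.34 ± 0.22 at the low and -0.37 ± 0.22 at the high dose (log2, SE; limma adjusted p = 0.575 and 0.741). The other probe gave -0.32 ± 0.19 and -0.27 ± 0.19. Without scaling, the low-dose values turned to 0.03 and 0.05 and the high-dose value of the second probe to 0.08, while normexp turned the low-dose value of the second to 0.03. With an SE of this size, the 95% interval at the high dose for the first probe ran between 0.564-fold and 1.07-fold.

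Hal converts histidine to urocanate, the start of its breakdown. Its levels were 5.65, 5.92 and 6.03 in control, 5.43, 5.89 and 6.16 in low-dose, and 5.43, 5.89 and 6.26 in high-dose mice. The groups shared nearly the same median, and the differences from control were -0.03 ± 0.14 at the low and 0.02 ± 0.14 at the high dose (log2, SE; limma adjusted p = 0.951 and 0.986).

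The spread between mice of a group was smallest for Arg1, with an SD of 0.15 that was larger than that of only 10.1% of kept probes. For Tdo2 probe A_51_P452625 the share was 67.3%. Prodh had an SD of 0.20, so its high-dose difference of 0.55 exceeded the spread between mice.

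Some members varied together from mouse to mouse. Of 42 pairs of probes compared over the mice, 36 were between genes and 6 within a gene, and 7 had a permutation p for Pearson's r that passed after adjustment over the 42. The share passing among pairs of other probes was not computed. Whether the members vary together more than other genes was therefore not tested. Of the 7, 4 were pairs of probes of 1 gene (Ass1, Tdo2, Nags and Otc). Between genes, Otc probe A_51_P126563 followed Hal with r = 0.75 (rho = 0.66, permutation adjusted p = 0.00336 and 0.0268) and Tdo2 with r = 0.72 (rho = 0.74, permutation adjusted p = 0.00595 and 0.00767), both with n = 18. Without the 2 mice farthest from the median, r was 0.61 and 0.65. The brightest Otc probe, A_52_P286360, lacks 1 spot and was not compared with other genes. Whether it follows Hal or Tdo2 was therefore not tested.

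With group means removed, r of Otc probe A_51_P126563 was 0.77 with Hal and 0.70 with Tdo2, and with slide means removed 0.71 and 0.54. Cps1 with Hal gave r = 0.64 (permutation adjusted p = 0.0297), but rho was 0.53 with an adjusted p of 0.16. Over all 36 pairs between genes r ran between -0.39 and 0.75, with a median of 0.22. All levels of a mouse come from 1 array and share its scaling.

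Tdo2 and Hal, which each followed Otc probe A_51_P126563, did not pass as a pair (r = 0.29, rho = 0.24, permutation adjusted p = 0.488 and 0.627, n = 18). The promoter windows of Otc and of these 2 genes are printed with every match to the 5 motifs above in capitals, on either strand. They are RefSeq sequences on GRCm38.p6 for Otc (chrX:10252055-10252354, plus strand), Hal (chr10:93488518-93488817, plus strand) and Tdo2 (chr3:81975679-81975978, minus strand), read in the direction of the gene.
Otc: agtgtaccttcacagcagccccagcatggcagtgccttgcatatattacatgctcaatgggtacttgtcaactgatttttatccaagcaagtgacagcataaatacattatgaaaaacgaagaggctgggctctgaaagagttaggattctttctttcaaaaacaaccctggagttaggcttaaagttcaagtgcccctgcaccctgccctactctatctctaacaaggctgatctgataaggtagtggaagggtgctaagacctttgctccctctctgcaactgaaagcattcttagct
Hal: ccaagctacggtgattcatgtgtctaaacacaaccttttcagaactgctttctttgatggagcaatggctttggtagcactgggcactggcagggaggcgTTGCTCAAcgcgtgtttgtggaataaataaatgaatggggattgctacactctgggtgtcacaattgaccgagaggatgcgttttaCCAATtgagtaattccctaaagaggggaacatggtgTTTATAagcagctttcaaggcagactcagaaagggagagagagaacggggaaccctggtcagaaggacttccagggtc
Tdo2: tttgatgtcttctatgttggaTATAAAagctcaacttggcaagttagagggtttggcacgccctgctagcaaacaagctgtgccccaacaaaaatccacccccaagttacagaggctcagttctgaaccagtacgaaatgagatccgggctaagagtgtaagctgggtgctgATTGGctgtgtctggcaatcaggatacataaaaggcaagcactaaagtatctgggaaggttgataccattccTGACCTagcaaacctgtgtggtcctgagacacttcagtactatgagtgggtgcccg
The Hal window holds, from left to right, a TTGCNNAA match, a CCAAT and a TATAAA on the opposite strand. The Tdo2 window holds TATAAA, then CCAAT and AGGTCA on the opposite strand. Otc has no match, so none of the 5 motifs is common to the 3 windows. Windows were found for 6 of the 9 genes, Ass1 and Nags being the others besides Prodh.

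By Pearson's r over the 18 mice, the named genes most like each member were Ubtf for Nags (0.88), Opa1 for Cps1 (0.86), Ndufv1 for Otc (0.89), Atp6v1e1 for Ass1 (0.79), Nipal4 for Asl (0.85), Sorbs2 for Arg1 (0.78), Limd1 for Prodh (0.81), Eps8l2 for Tdo2 (0.89) and Polg2 for Hal (0.89). The next in order were Ccdc85b and Repin1 for Nags, Oxld1 and Endov for Cps1, Grsf1 and Ghr for Otc, and Gmpr2 and Dld for Ass1. For the rest they were Klk15 and Zfp369 for Asl, Abt1 and C5ar2 for Arg1, Rhoq and Ppcdc for Prodh, Prkag1 and Ddx47 for Tdo2, and Fbxl21 and Id2 for Hal. For Otc this ranking also used probe A_51_P126563. None of these 27 is another of the 9 members. Each is the top of a ranking over all named genes, so a high r is what the choice itself gives.

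Around the 9 members, 96 genes of amino acid metabolism were taken in 9 lists, and 93 were measured. None passed the adjusted threshold in any comparison in limma. At an unadjusted p under 0.05, 6 were higher and 10 lower at the low dose than in control, 2 higher and 3 lower at the high dose than in control, and 4 higher and 6 lower at the high than at the low dose. These are 17.2%, 5.38% and 10.8% of the 93 genes, where 12.3%, 7.28% and 7.66% of all probes were under that p in the same 3 comparisons. Their median log2 fold change was -0.06 for the low dose and -0.04 for the high dose against control, and 0.02 for the high against the low dose.

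Got1, the cytosolic aspartate aminotransferase, which makes or uses the aspartate that Ass1 consumes, stood out at the low dose. Its level was 4.25, 4.84 and 4.95 in control, 4.98, 5.62 and 6.43 in low-dose, and 4.30, 4.57 and 4.85 in high-dose mice (lowest, median and highest). All low-dose mice were above all mice of both other groups, and high-dose mice overlapped control. Group means were 4.74 ± 0.27 in control, 5.72 ± 0.52 in low-dose and 4.58 ± 0.20 in high-dose mice (SD, n = 6 each).

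The low dose exceeded control by 0.99 ± 0.20 (log2, SE), or 1.98-fold with a 95% interval of 0.56 to 1.41 on the log2 scale (limma adjusted p = 0.0525). The high dose was below the low dose by -1.14 ± 0.20, or 0.454-fold (limma adjusted p = 0.0543). Neither passed the threshold of 0.05, and both lay just above it. High dose against control gave -0.15 ± 0.20 (limma adjusted p = 0.895), which turned to 0.20 without scaling and to 0.01 with normexp.

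Groups that do not overlap occurred for 0.81% of all probes with the low dose above control and for 0.409% with the high dose below the low dose. Got1 was named for its small p, so its lack of overlap and its differences within slides are not separate from that choice. Within slides, the low-dose minus control difference of Got1 was above 0 on all 4 slides with both groups (0.04 to 1.78), and the high-dose minus low-dose difference was below 0 on all 5 (-1.76 to -0.21). Over 16 other settings, the adjusted p of the low-dose difference ran between 0.018 and 0.233 and was under 0.05 in 7. The lowest came without scaling between arrays, where 936 of all 25438 probes passed. The highest came with inner or outer position as a block. For high against low dose it ran between 0.0242 and 0.416 and was under 0.05 in 5. With 1 mouse left out, the low-dose difference of Got1 was under 0.05 without low-dose mouse 4 (adjusted p = 0.0154), high-dose mouse 2 (0.0472) or high-dose mouse 6 (0.0461). The difference between the doses was under 0.05 without low-dose mouse 4 (adjusted p = 0.0279) or control mouse 2 (0.0412). Got1 was read by 1 probe, saturated on no array.

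In the transaminase list with serine, glycine and threonine breakdown, 12 of 13 genes were measured. Apart from Got1, Agxt, the peroxisomal transaminase that detoxifies glyoxylate, differed from control by -0.46 ± 0.20 at the low dose (limma adjusted p = 0.373) and by -0.40 ± 0.20 at the high dose. Its probe was saturated on 1 array. Gpt, alanine aminotransferase, had 0.28 ± 0.14 at the high against the low dose (limma adjusted p = 0.687).

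Of the 13 urea cycle partners, all measured, 0 were under an unadjusted p of 0.05 in limma for the low dose and 1 for the high dose against control, where 12.3% and 7.28% of all probes were. That 1 was Slc25a13, the citrin carrier that exports aspartate from mitochondria, at -0.35 ± 0.16 (adjusted p = 0.659). Slc25a15, the ornithine carrier, was -0.24 ± 0.09 at the high against the low dose (adjusted p = 0.517). Glul, which fixes ammonia as glutamine in pericentral hepatocytes, differed from control by 0.33 ± 0.17 at the low and 0.12 ± 0.17 at the high dose.

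The proline list had 6 measured genes of 7. Aldh4a1, which completes proline oxidation to glutamate downstream of Prodh, was 0.23 ± 0.10 above control at the low dose (limma adjusted p = 0.376) and -0.01 ± 0.10 from it at the high dose, so it did not share the ordering of Prodh means. P4ha1, a subunit of prolyl hydroxylase, had -0.44 ± 0.19 at the high dose (limma adjusted p = 0.651).

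Among 9 genes of the kynurenine route, Kynu, which cleaves kynurenines, was -0.30 ± 0.08 at the high against the low dose (limma adjusted p = 0.255). Afmid, the formamidase after Tdo2, was -0.44 ± 0.16 at the low dose against control and 0.50 ± 0.16 at the high against the low dose (limma adjusted p = 0.238 and 0.384). Haao differed from control by 0.28 ± 0.13 at the low dose, and Ido2 by 0.26 ± 0.11 at the high dose.

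In the histidine list of 4, Amdhd1, which acts downstream of Hal, was -0.43 ± 0.17 from control at the low dose (limma adjusted p = 0.296), with every low-dose mouse below every control mouse. Groups not overlapping in that direction occurred for 1.03% of all probes, and Amdhd1 was named for its small p. Uroc1 and Ftcd were -0.17 ± 0.14 and -0.08 ± 0.10 from control at the low dose.

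Of the 9 methionine and cysteine genes, 3 were lower at the low dose than in control at an unadjusted p under 0.05, where 12.3% of all probes were under it in either direction. They were Ahcy, S-adenosylhomocysteine hydrolase (-0.45 ± 0.14, limma adjusted p = 0.2), Cdo1, cysteine dioxygenase (-0.42 ± 0.12, 0.151), and Cth, cystathionine gamma-lyase (-0.42 ± 0.19, 0.368). None was under that p at the high dose, where Ahcy had -0.09 ± 0.14 and Cdo1 -0.05 ± 0.12. High against low dose gave 0.36 ± 0.14 for Ahcy and 0.37 ± 0.12 for Cdo1 (adjusted p = 0.553 and 0.408). Cbs, cystathionine beta-synthase, went the other way between the doses, at -0.35 ± 0.14 (limma adjusted p = 0.56).

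The largest list, 21 genes of branched-chain amino acid and lysine breakdown, had 1 gene higher and 3 lower at the low dose than in control by unadjusted p, which is 19% of the list against 12.3% of all probes. Ivd, isovaleryl-CoA dehydrogenase of the leucine route, differed by -0.49 ± 0.13 for the low dose against control and by 0.41 ± 0.13 for the high against the low dose (limma adjusted p = 0.111 and 0.353). Pccb, a subunit of propionyl-CoA carboxylase, was 0.38 ± 0.15 and 0.37 ± 0.15 above control at the low and the high dose (limma adjusted p = 0.302 and 0.643).

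For phenylalanine and tyrosine, 8 genes were measured and 0 were under an unadjusted p of 0.05 at the low dose in limma. Hgd, homogentisate dioxygenase, was -0.24 ± 0.08 at the high against the low dose (limma adjusted p = 0.405), with every high-dose mouse below every low-dose mouse. This lack of overlap occurred for 0.409% of all probes, and Hgd too was named for its small p. Of 11 measured regulators of 12, Onecut1, a hepatic transcription factor, differed from control by 0.61 ± 0.27 and Sirt3, a mitochondrial deacetylase, by -0.29 ± 0.13 at the low dose (limma adjusted p = 0.368 each).

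**Figure D4:**
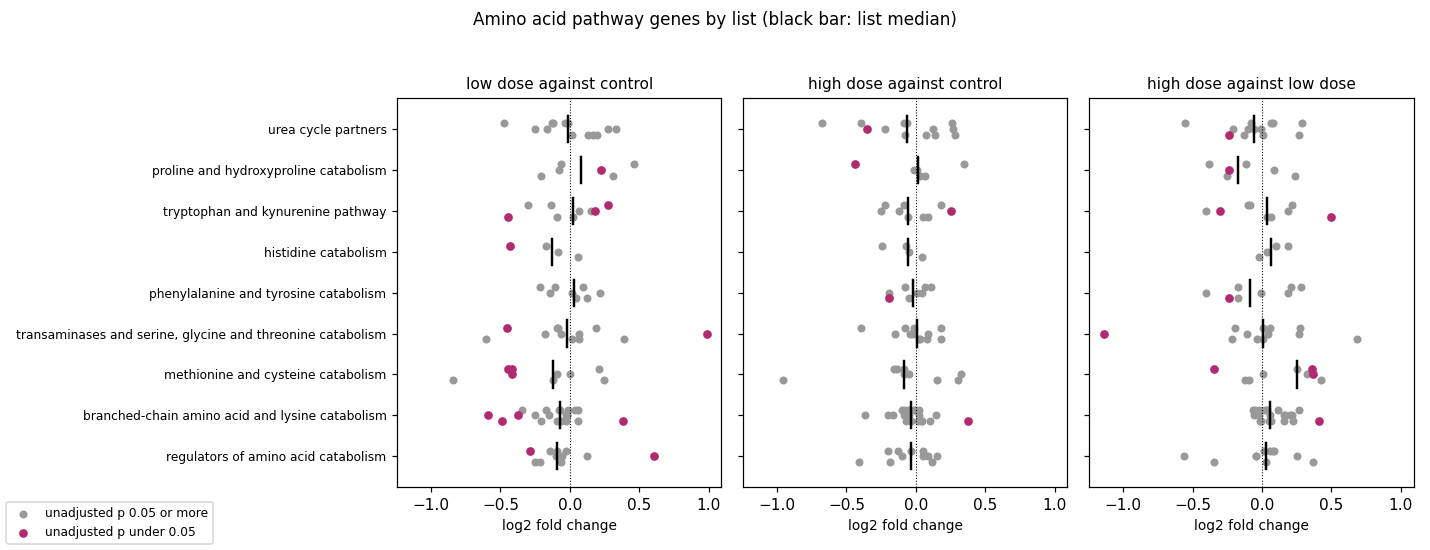
Log2 fold change of the 93 measured genes of amino acid metabolism by list, for each dose against control and for the 2 doses against each other, with the list median as a black bar and an unadjusted p under 0.05 in colour. Got1 in the transaminase list lies farthest from 0, at 0.99 for the low dose against control and -1.14 for the high against the low dose.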

How the data were processed

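Liver total RNA of 18 mice was hybridised to Agilent 1-colour arrays, 1 array per mouse. Per the file headers, the spot intensity had its background subtracted in Agilent Feature Extraction and the mean and background intensity were given beside it, not normalised between arrays. The authors deposited a series table of log2 values, used here only as an alternative; per the submitters' processing notes, limma and version 9.5 of Agilent Feature Extraction were used, and no steps are given. Processed intensities were put on a log2 scale minus the array's 75th percentile, outlier spots were dropped and repeated spots averaged. Probes well above background on at least 6 of 18 arrays were kept. The 3 groups were compared in limma 3.58.1 (R 4.3.3; lmFit, eBayes), all 18 arrays with group as the only term, 2-sided, with Benjamini-Hochberg adjustment over all probes tested and a threshold of 0.05. The model was tested on simulated data. A gene of a pathway list was read from its brightest kept probe that was saturated on no array, where it had one.

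All members and probes are named, with the 3 named genes of highest r with each member. Genes of a pathway list were named from the 4 with the smallest unadjusted p in any comparison, and not all 4 are given for every list. The members and lists were chosen with earlier results of these data known. Gene names of other probes were updated by accession through a RefSeq gene table (23366 of 41174 probes matched). Correlations used 100000 permutations (scipy 1.17.1), with a smallest p of 1e-05. The number of arrays limits the precision, with 6 mice per group. The 5 slides were told apart by shared scan time, and 1 holds no control. Mouse numbers pair no mice by any stated rule; deviations of same-numbered mice correlated with r between -0.29 and 0.33. Alternatives were quantile normalisation, the array median, no scaling, normexp, the deposited table, other filters, other eBayes settings, array weights, slide, replicate and position blocks, and leaving out each mouse.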

Additional observations from a re-analysis of the deposited data

Results flagged for a closer look

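Of 42 groups of mice examined (14 probes in 3 groups) for a mouse far from the others, 1 was marked, where chance gives about 1 in 20. It was Otc probe A_52_P369776, whose lowest low-dose level, -2.23 in mouse 1, lay far below the other 5 low-dose mice (-1.70 to -1.39). The intensity there was 74.8 units. Without that mouse the low-dose minus control difference of this probe was 0.10 ± 0.15 (log2, SE), against -0.01 ± 0.16 with it, and neither passed the limma threshold. Low-dose mouse 1 was also the lowest of its group for Otc probe A_51_P126563 (4.16), Hal (5.43) and both Tdo2 probes (4.72 each). For Otc probe A_52_P286360 (5.09) it was not. The cause of its low values was not tested.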

How the results depend on the processing

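No member probe passed the adjusted threshold of 0.05 in limma under any alternative: 0 of 657 values under other settings and 0 of 756 with 1 mouse left out. The sign turned in 85 and 44 of these. Without scaling the median of all probes moved to 0.34 above control at both doses, and with normexp to -0.16 at the low dose. The cause of each turn was not tested. The log2 differences that turned sign are given next, with a value for each probe of a gene that turned. Values of Got1, which is no member and is not in these counts, are listed beside them. Quantile normalisation gave 0.000139 for Hal, 0.0372 for Asl and 0.00711 for Otc (low dose against control). It also gave 0.0316 for Nags (high dose against control). The same setting gave 0.00493 for Tdo2 (high against low dose). Scaling by the array median gave -0.0411 for Hal and -0.0471 for Cps1 (high dose against control). This further gave -0.043 and -0.0606 for Otc, -0.00616 for Hal, -0.0559 for Arg1 and -0.00934 for Tdo2 (high against low dose). No scaling between arrays gave 0.25, 0.19 and 0.35 for Otc, 0.33 for Hal, 0.35 for Asl, 0.13 for Arg1, 0.22 and 0.13 for Nags, 0.0268 and 0.0453 for Tdo2 and 0.24 for Cps1 (low dose against control). It also gave 0.25 and 0.20 for Otc, 0.21 for Asl, 0.12 for Arg1, 0.27 and 0.17 for Ass1, 0.20 for Got1, 0.34 and 0.28 for Nags and 0.0829 for Tdo2 (high dose against control). The same setting gave -0.00896 for Arg1 (high against low dose). Normexp background gave 0.24 and 0.22 for Otc, 0.32 for Hal, 0.38 for Asl, 0.12 for Arg1, 0.22 and 0.15 for Nags, 0.23 for Cps1 and 0.0277 for Tdo2 (low dose against control). This further gave 0.0895 and 0.21 for Otc, 0.10 for Asl, 0.0865 for Ass1, 0.00744 for Got1 and 0.24 and 0.14 for Nags (high dose against control). It also gave -0.15 and -0.00605 for Otc, -0.14 for Hal, -0.21 for Arg1, -0.11 for Cps1, -0.18 for Tdo2 and -0.00936 for Nags (high against low dose). The authors' deposited table gave 0.00833 for Hal, 0.0482 for Asl and 0.00267 for Otc (low dose against control). The same setting gave 0.14 and 0.0385 for Nags and 0.0708 for Otc (high dose against control). This further gave 0.0522 for Tdo2 (high against low dose). Array weights gave 0.00617 for Asl and 0.00296 for Otc (low dose against control). It also gave -0.0137 for Arg1 and 0.0752 for Tdo2 (high against low dose). Slide as a fixed block gave 0.0658 for Hal, 0.049 for Asl and 0.11 for Otc (low dose against control). The same setting gave 0.00235 for Ass1 and 0.0484 and 0.017 for Nags (high dose against control). This further gave -0.0184 and -0.011 for Otc and -0.00225 for Hal (high against low dose). Slide as a random block gave 0.0154 for Otc (low dose against control). It also gave 0.00096 for Nags (high dose against control). Inner or outer position as a block, chosen after seeing the data, gave 0.0477 for Hal, 0.0361 for Asl, -0.099 and -0.19 for Ass1 and 0.0337 for Cps1 (low dose against control). The same setting gave 0.0966 for Nags (high dose against control). This further gave -0.0079 for Arg1 and 0.0203 for Tdo2 (high against low dose). Leaving out 1 mouse at a time, values that turned ran over the following ranges: -0.0858 to 0.0297 for Asl A_51_P174645, -0.0711 to 0.0966 for Otc A_52_P369776 and -0.0968 to 0.0494 for Hal A_51_P172155 (low dose against control). Further ranges were -0.0536 to 0.11 for Hal A_51_P172155, -0.0479 to 0.0898 for Cps1 A_51_P455090, -0.051 to 0.0585 for Nags A_51_P445574 and -0.00408 to 0.18 for Otc A_52_P369776 (high dose against control). The last were -0.0812 to 0.11 for Otc A_51_P126563, -0.0323 to 0.15 for Hal A_51_P172155, -0.0455 to 0.0598 for Arg1 A_51_P303160, -0.000865 to 0.20 for Otc A_52_P369776, -0.0615 to 0.13 for Tdo2 A_52_P404341, -0.0513 to 0.0943 for Otc A_52_P286360 and -0.18 to 0.0789 for Tdo2 A_51_P452625 (high against low dose). Prodh kept its sign against control at both doses in all of these, between 0.12 and 0.66 (low dose) and between 0.41 and 0.90 (high dose) over other settings.

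The replicate block, with mouse number as a term, changed no member's call: 0 probes passed, and Prodh stayed at 0.55 at the high dose (limma adjusted p = 0.537). Same-numbered mice deviated together (r over 0.1) in 7 of 18 pairs, and 10 of 18 mice correlated best with their own number. The shares for mice of different number were not computed. Some same-numbered mice also shared a slide. These were control and high-dose mice 1, 2, 3 and 5 (r = 0.33, 0.14, 0.19 and 0.09). Control and low-dose mice 4 (r = 0.22) and low- and high-dose mice 6 (r = 0.19) did so too. For these pairs, number and slide cannot be told apart. Control and high-dose mice 4 (r = 0.13) and low- and high-dose mice 5 (r = 0.23) were over 0.1 without sharing a slide. With 6 arrays a group the precision is limited: the median SE of a member's log2 difference was 0.14.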
